A study of Homo sapiens with 6 samples.

Results

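The IFI-named genes are interferon-inducible genes whose symbols carry the letters IFI followed by a number. The 8 genes described here are IFI6, IFI27, IFI27L1, IFI27L2, IFI30, IFI35, IFI44 and IFI44L, taken by symbol from the 56303 gene rows of a deposited table of RNA sequencing counts. The rule uses names and no measured value, but the set was drawn up with earlier results of these data known. The samples were 6 libraries of A549, an established line of human lung adenocarcinoma cells. Cells of 3 libraries were transfected with a negative-control siRNA and those of the other 3 with an siRNA against HNRNPD, and no other treatment, genotype or time is labelled. The labels give neither the siRNA sequences nor whether replicates were separate cultures, so a p-value reflects the spread among these libraries alone, and that spread may be technical. HNRNPD encodes the RNA-binding protein AUF1.

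Interferons act through surface receptors and the kinases JAK1 and TYK2. Type I and type III interferons activate ISGF3, a transcription factor complex that binds interferon-stimulated response elements (ISREs) in promoters. Interferon gamma acts mainly on genes with gamma-activated sites (GAS). The IFI genes are named for this induction and share no single function: some encode small membrane proteins, some cytoplasmic proteins and 1 a lysosomal enzyme.

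Totals were 42607632 to 43005090 counts in the control libraries and 37151094 to 40462117 in the HNRNPD siRNA libraries. Levels are given in CPM, counts scaled to a common library total. Where no count was seen, up to 3 counts remain possible, equal to 0.0698 to 0.0808 CPM, a limit that covers counting error only. It takes each count as separate and would be higher if both mates of a pair were counted. HNRNPD itself stood at 942.2 to 965.4 CPM in the control libraries and 162.7 to 177 CPM in the HNRNPD siRNA libraries, a 5.62-fold fall (edgeR adjusted p = 1.38e-15), which matched the labels of all 6 libraries. The epithelial keratin gene KRT8 was at 2043 CPM or more in every library, and the summed level of 6 epithelial markers was 5620 to 6000 CPM in control and 3590 to 3640 CPM in HNRNPD siRNA libraries, with 4 lower, 1 higher and 1 not called. In bulk RNA, fewer cells of a type and less RNA per cell cannot be told apart.

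The promoters of 5 members are shown because they differ in the interferon-response letters they hold, which can be set beside the sizes of the changes. RefSeq's GRCh38.p14 table holds windows from 250 bases before to 50 after each gene's start, and all 8 members matched. Both strands were searched for the ISRE core (GAAA, any 2 bases, GAAA) and the GAS letters TTCNNNGAA. In the lines for IFI6, IFI27, IFI44 and IFI44L, bases 200 to 1 before the start are printed 5′ to 3′ on the gene's strand with ISRE core matches in capitals. In the line for IFI35, bases 60 to 1 before the start are printed with the GAS match in capitals. The windows are chr1:27672193-27672392 (minus strand) for IFI6, chr14:94110536-94110735 (plus) for IFI27, chr1:78649589-78649788 (plus) for IFI44, chr1:78620248-78620447 (plus) for IFI44L and chr17:43006724-43006783 (plus) for IFI35.
IFI6: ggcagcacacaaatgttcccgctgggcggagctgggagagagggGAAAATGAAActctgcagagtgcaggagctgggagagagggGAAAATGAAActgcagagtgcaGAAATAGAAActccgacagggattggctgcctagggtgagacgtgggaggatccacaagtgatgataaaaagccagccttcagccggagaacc
IFI27: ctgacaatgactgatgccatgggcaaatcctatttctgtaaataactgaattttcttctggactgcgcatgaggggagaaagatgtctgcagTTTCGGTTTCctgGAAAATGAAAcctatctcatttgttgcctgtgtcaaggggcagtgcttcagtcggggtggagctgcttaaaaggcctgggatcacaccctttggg
IFI44: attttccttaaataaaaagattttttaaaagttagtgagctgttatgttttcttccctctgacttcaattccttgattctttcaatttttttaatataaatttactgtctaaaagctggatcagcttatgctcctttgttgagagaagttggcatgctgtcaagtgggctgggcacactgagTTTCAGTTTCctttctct
IFI44L: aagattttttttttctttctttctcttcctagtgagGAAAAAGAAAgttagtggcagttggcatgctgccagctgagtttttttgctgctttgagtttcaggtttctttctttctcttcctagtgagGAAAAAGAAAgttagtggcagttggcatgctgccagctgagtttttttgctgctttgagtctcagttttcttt
IFI35: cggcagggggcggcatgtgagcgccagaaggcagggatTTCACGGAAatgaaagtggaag
IFI6 held 3 ISRE cores, IFI27 and IFI44L 2 each and IFI44 1, so 4 of the 8 members had a match. The windows of IFI27L1, IFI27L2, IFI30 and IFI35 held none. Among all 35116 windows of this length, 3.57% held an ISRE core and 7.66% the GAS letters. Counted by gene, the shares were 4.38% and 9.38% of 27305 genes. GAS letters were in the windows of IFI35 and IFI27, and in IFI27 they overlapped both ISRE matches (bases -101 to -93). Such a match is a description of letters, not a bound site.

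The windows also differed in repeats. IFI44L holds 85 bases in 2 copies, at a spacing of 91 bases, so its ISRE cores at bases -164 to -155 and -73 to -64 sit in copies of the same stretch. Repeats of at least that length occurred in 0.094% of all windows. In IFI6 a stretch of 29 bases recurs at a spacing of 41 bases and carries the cores at -156 to -147 and -115 to -106, and 0.883% of windows held a repeat that long or longer. The longest repeats of the other 6 members were 7 to 9 bases, near the median of 8 over all windows.

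Of the 8 members, 7 were higher after HNRNPD siRNA, 0 were lower and 1, IFI30, was not called (edgeR quasi-likelihood test, Benjamini-Hochberg adjusted p under 0.05 over 20465 tested genes). Among all tested genes 28.4% were called higher and 27.8% lower, or 56.1% in either direction. All 8 members passed the filter on low counts. At least 2-fold higher were 6 members, against 10.2% of all tested genes, and at least 10-fold higher were 5, against 0.713%. Each count rests on a member at the threshold. IFI27L2 stood at 2.001-fold, with log2 fold changes of 0.89 to 1.14 over the 15 alternatives, and IFI35 at 10.2-fold, with 3.11 without HNRNPD siRNA replicate 3 and 3.27 without control replicate 3 against a threshold of 3.32. In 7 members every HNRNPD siRNA library lay above every control library, while 31.7% of tested genes were separated upward and 30.9% downward. The median log2 fold change was 4.36 over the members and 0.01 over all tested genes. The plot of member levels by library shows both groups for each gene.

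**Figure D1:**
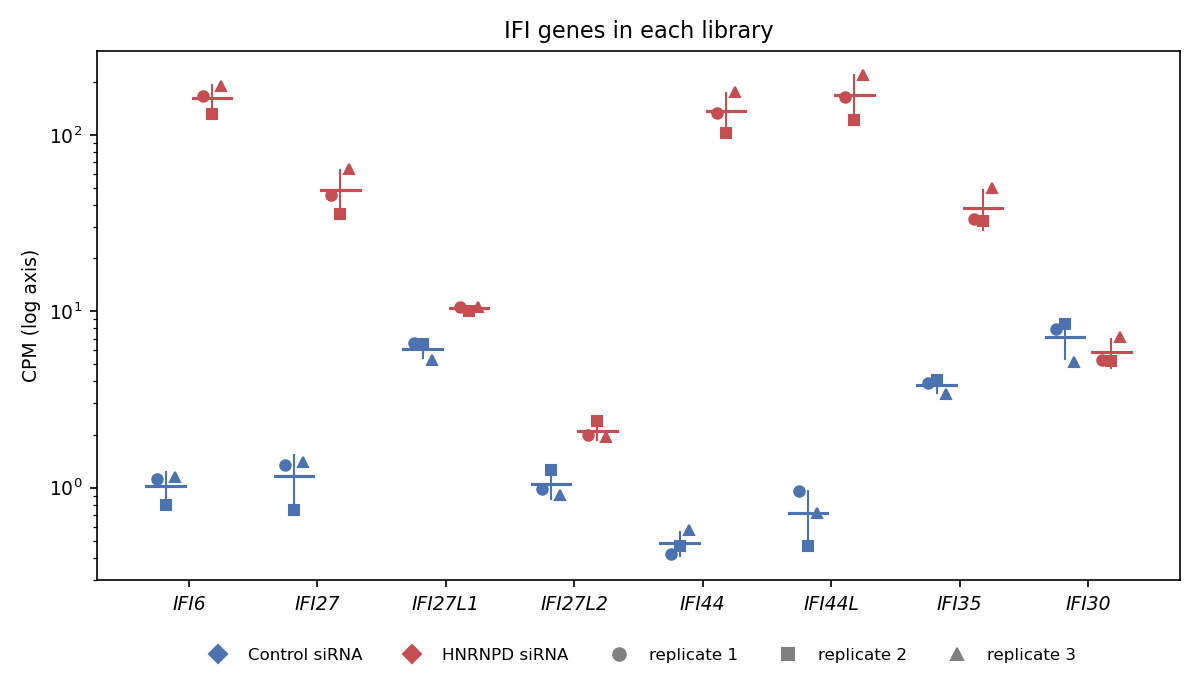
Level of each IFI gene in the 6 libraries, in CPM on a log axis, with control siRNA and HNRNPD siRNA libraries as separate points. The groups are apart for 7 genes and overlap for IFI30 (5.13 to 8.50 CPM in control and 5.20 to 7.12 CPM in HNRNPD siRNA libraries).

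IFI44 and IFI44L encode related cytoplasmic proteins with antiviral or regulatory roles in the interferon response, and both bind the immunophilin FKBP5. They are neighbours on chromosome 1, at 78649796 to 78664078 for IFI44 and 78619922 to 78646145 for IFI44L (GRCh38, plus strand), with 3.7 kb between them. The counts of IFI44 were 18, 20 and 24 in control replicates 1 to 3 and 4836, 4275 and 6971 in HNRNPD siRNA replicates 1 to 3. In CPM these are 0.423, 0.467 and 0.572, and then 132.9, 102.0 and 174.1. No control library reached 1 CPM and every HNRNPD siRNA library was above 100 CPM. The mean went from 0.487 ± 0.0768 to 136.3 ± 36.2 CPM (SD, n = 3), which is 8.12 on the log2 scale (SE 0.36, 95% interval 7.19 to 9.05, edgeR adjusted p = 2.84e-05) and rank 12 by size of rise among the 20465 tested genes.

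IFI44L was at 0.963, 0.467 and 0.715 CPM in control replicates 1 to 3 and at 164.7, 120.8 and 219.0 CPM in HNRNPD siRNA replicates 1 to 3. The lowest HNRNPD siRNA library was 125-fold above the highest control library. The fitted log2 fold change was 7.87 (SE 0.42, interval 6.75 to 8.996, edgeR adjusted p = 0.000105), so the intervals of IFI44 and IFI44L overlap. The ratio of IFI44L to IFI44 in CPM was 1.24, 1.18 and 1.26 in HNRNPD siRNA replicates 1 to 3. Per kilobase of exon the same ratio was 0.247, 0.236 and 0.25, since the table gives IFI44L 10240 exonic bases and IFI44 2038. The ratio between the genes thus varied far less among these libraries than either level did. FKBP5 went the other way, from 51.4 ± 2.87 to 39.5 ± 2.20 CPM (SD, n = 3; log2 fold change -0.38, SE 0.07, edgeR adjusted p = 0.000105).

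IFI6 and IFI27 encode small hydrophobic membrane proteins of 1 family, IFI6 known for blocking flavivirus replication at the endoplasmic reticulum and IFI27 for roles at mitochondria and in cell death. IFI6 (chromosome 1, 27666061 to 27672218, minus strand) was at 1.13, 0.794 and 1.14 CPM in control replicates 1 to 3 and at 166.3, 130.6 and 188 CPM in HNRNPD siRNA replicates 1 to 3. It rose 158-fold by the fit, or 7.30 on the log2 scale (SE 0.20, edgeR adjusted p = 3.42e-08), and had the smallest adjusted p of the 8 members. IFI27 (chromosome 14, 94104836 to 94116698, plus strand) was at 1.34, 0.747 and 1.41 CPM in control replicates 1 to 3 and at 45.9, 35.8 and 63.9 CPM in HNRNPD siRNA replicates 1 to 3. Its groups were also far apart, with a 25.4-fold gap between the lowest HNRNPD siRNA and the highest control library. Its log2 fold change was 5.38 (SE 0.37, interval 4.40 to 6.37, edgeR adjusted p = 0.000207).

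An antisense gene of IFI6 was counted in the table. RP11-288L9.4, named AL445490.1 in GENCODE 29, runs on the opposite strand, and 607 of its 1651 exonic bases lie inside the span of IFI6 while 0 lie in IFI6 exons. Its counts were 2, 4 and 2 in control replicates 1 to 3 and 590, 575 and 692 in HNRNPD siRNA replicates 1 to 3. Control libraries were near the floor of detection and the HNRNPD siRNA libraries far above it, 7.90 apart on the log2 scale by edgeR (SE 0.23, adjusted p = 7.6e-15). No source used here gives the strand setting of the counting, so reads of this gene and unspliced reads of IFI6 cannot be told apart.

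IFI27L1 and IFI27L2 are paralogs of IFI27 and lie beside it on chromosome 14, at gaps of 1.0 kb and 11.1 kb. IFI27L1 (94081282 to 94103846, plus strand) was at 6.57, 6.49 and 5.32 CPM in control replicates 1 to 3 and at 10.6, 9.998 and 10.6 CPM in HNRNPD siRNA replicates 1 to 3. IFI27L2 (94127779 to 94130253, minus strand) was at 0.986, 1.26 and 0.906 CPM and at 1.98, 2.39 and 1.95 CPM. Neither gene's groups overlapped, yet the changes were small beside those of IFI27. The log2 fold changes were 0.76 (SE 0.11, edgeR adjusted p = 1.13e-05) for IFI27L1 and 1.00 (SE 0.22, edgeR adjusted p = 0.00071) for IFI27L2. Their intervals, 0.53 to 0.99 and 0.54 to 1.46, overlapped each other and lay below that of IFI27. By size of rise IFI27L1 stood at rank 3161 and IFI27L2 at rank 2170, against rank 47 for IFI27. No 50-base word of the annotated transcripts was shared between members.

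IFI35 encodes a leucine zipper protein that binds NMI, another interferon-inducible protein. IFI35 (chromosome 17, 43006725 to 43014456, plus strand) was at 3.90, 4.09 and 3.41 CPM in control replicates 1 to 3 and at 33.5, 32.4 and 50.2 CPM in HNRNPD siRNA replicates 1 to 3. The HNRNPD siRNA libraries were all above the control ones, and replicate 3 stood above the other two. The log2 fold change was 3.35 (SE 0.21, interval 2.85 to 3.85, edgeR adjusted p = 9.04e-06). NMI went from 14.5 ± 0.472 to 73.2 ± 20.5 CPM (SD, n = 3), a 5.06-fold rise (log2 fold change 2.34, SE 0.23, edgeR adjusted p = 0.000571). The ratio of IFI35 to NMI in CPM was 0.51, 0.56 and 0.52 in HNRNPD siRNA replicates 1 to 3.

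**Figure D2:**
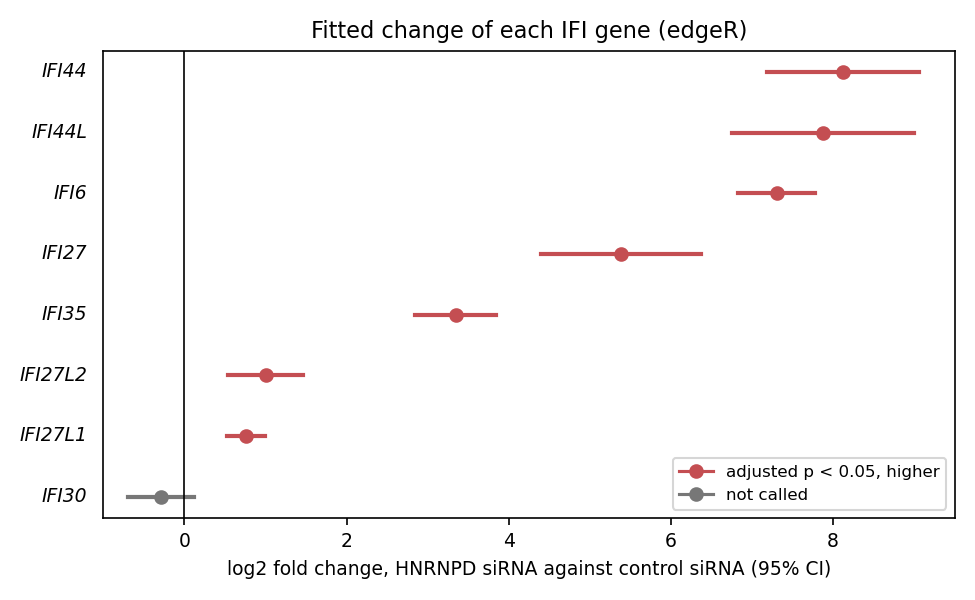
Log2 fold change of each IFI gene between HNRNPD siRNA and control siRNA libraries, with the 95% interval of the edgeR fit. The values of IFI44, IFI44L, IFI6, IFI27 and IFI35 are above 3.32 (10-fold). IFI27L1 and IFI27L2 are at 0.76 and 1.00, and the interval of IFI30 (-0.69 to 0.11) spans 0, which is marked by a line.

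IFI30 encodes GILT, a lysosomal thiol reductase that unfolds antigens for class II presentation and is known for constitutive expression in antigen-presenting cells and induction by interferon gamma. It was at 7.89, 8.50 and 5.13 CPM in control replicates 1 to 3 and at 5.28, 5.20 and 7.12 CPM in HNRNPD siRNA replicates 1 to 3. The groups overlapped, since control replicate 3 was the lowest of all 6 and all 3 HNRNPD siRNA libraries lay within the control range. The mean was 7.17 ± 1.80 CPM in control and 5.87 ± 1.09 CPM in HNRNPD siRNA libraries (SD, n = 3). The log2 fold change was -0.29 (SE 0.19, interval -0.69 to 0.11) and was not called (edgeR adjusted p = 0.206). Single libraries decided this: without control replicate 3 it was -0.49 (edgeR adjusted p = 0.0115) and without HNRNPD siRNA replicate 3 it was -0.46 (edgeR adjusted p = 0.0266), both called lower.

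The counts of IFI30 are not separate from those of a readthrough gene. AC007192.4, named AC007192.1 in GENCODE 29, runs on the same strand of chromosome 19 from PIK3R2 through IFI30 (18153158 to 18178117), and IFI30 itself spans 18173162 to 18178117. A fraction of 0.402 of IFI30's exonic bases lies in that gene's exons. The readthrough row held 2284, 2141 and 1958 counts in control replicates 1 to 3 and 1195, 1377 and 1197 in HNRNPD siRNA replicates 1 to 3. Subtracting the counts of PIK3R2 leaves 332, 361 and 211, and then 185, 208 and 282, against 336, 364 and 215, and then 192, 218 and 285, for IFI30. The readthrough count thus equalled the sum of both genes to within 3 to 10 counts in every library, or 0.14% to 0.73%. PIK3R2, a regulatory subunit of phosphoinositide 3-kinase, fell from 43.0 ± 2.44 to 26.2 ± 2.87 CPM (SD, n = 3; log2 fold change -0.72, SE 0.08, edgeR adjusted p = 5.05e-07). Among 50-base words of IFI30 transcripts, 39.5% also occur in transcripts of another gene, against 0% to 2.6% for the other 7 members.

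**Figure D3:**
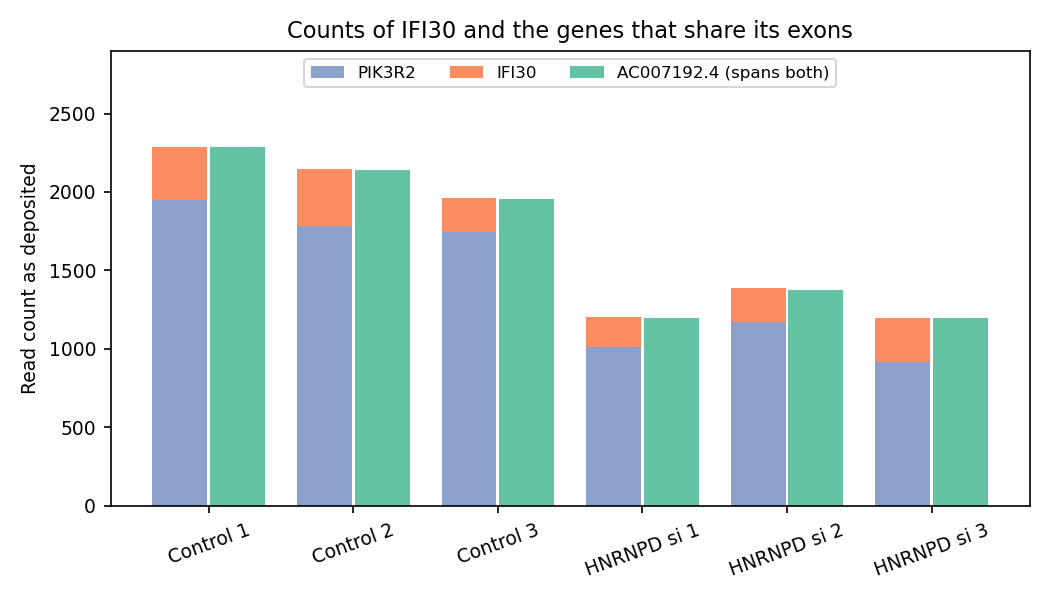
Counts of PIK3R2 and IFI30, stacked, beside the count of the readthrough gene AC007192.4 in each of the 6 libraries. The stacked sum and the readthrough count differ by 3 to 10 counts.

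Compared per kilobase of exon, the members changed order between the groups. In the control libraries the levels ran from IFI30 (2.89 ± 0.724 CPM per kb, SD, n = 3), IFI27L1 (2.57 ± 0.295), IFI35 (1.92 ± 0.177), IFI6 (1.18 ± 0.229) and IFI27L2 (0.632 ± 0.112) to IFI27 (0.281 ± 0.0875), IFI44 (0.239 ± 0.0377) and IFI44L (0.0698 ± 0.0242). The libraries of IFI30 and IFI27L1, and of IFI27 and IFI44, overlapped, so those neighbours were not apart beyond their spread. In the HNRNPD siRNA libraries IFI6 was highest at 187 ± 33.5 CPM per kb, above IFI44 at 66.9 ± 17.8. IFI35 (19.6 ± 5.04), IFI44L (16.4 ± 4.81) and IFI27 (11.7 ± 3.44) followed, with overlapping libraries between neighbours. IFI27L1 (4.37 ± 0.143), IFI30 (2.36 ± 0.438) and IFI27L2 (1.27 ± 0.147) were lowest. Among the tested genes IFI44L moved from percentile 3.2 to 89.0 of this level and IFI6 from 37.2 to 99.3. The exon length in the table joins all isoforms, and that of IFI44L, 10240 bases, is the longest of the 8.

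Within the HNRNPD siRNA group, 7 of the 8 members were highest in replicate 3 and lowest in replicate 2, the exception being IFI27L2. This includes near-ties: IFI27L1 was at 10.58 and 10.59 CPM in replicates 1 and 3, and IFI30 at 5.28 and 5.20 CPM in replicates 1 and 2. The share of all tested genes with this order was not counted, so these values do not show whether the full order is particular to the members. Being highest in replicate 3 was not. In the lists described below it held for 27 of 30 core type I interferon-stimulated genes and 9 of 10 tested other IFI-prefixed genes. It also held for 6 of 9 tested class II and lysosomal genes. The highest library exceeded the lowest 1.81-fold for IFI44L, 1.79-fold for IFI27, 1.71-fold for IFI44, 1.55-fold for IFI35 and 1.44-fold for IFI6. For IFI27L1 it was 1.06-fold. HNRNPD itself was highest in replicate 1 and lowest in replicate 2, at 177 and 162.7 CPM.

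**Figure D4:**
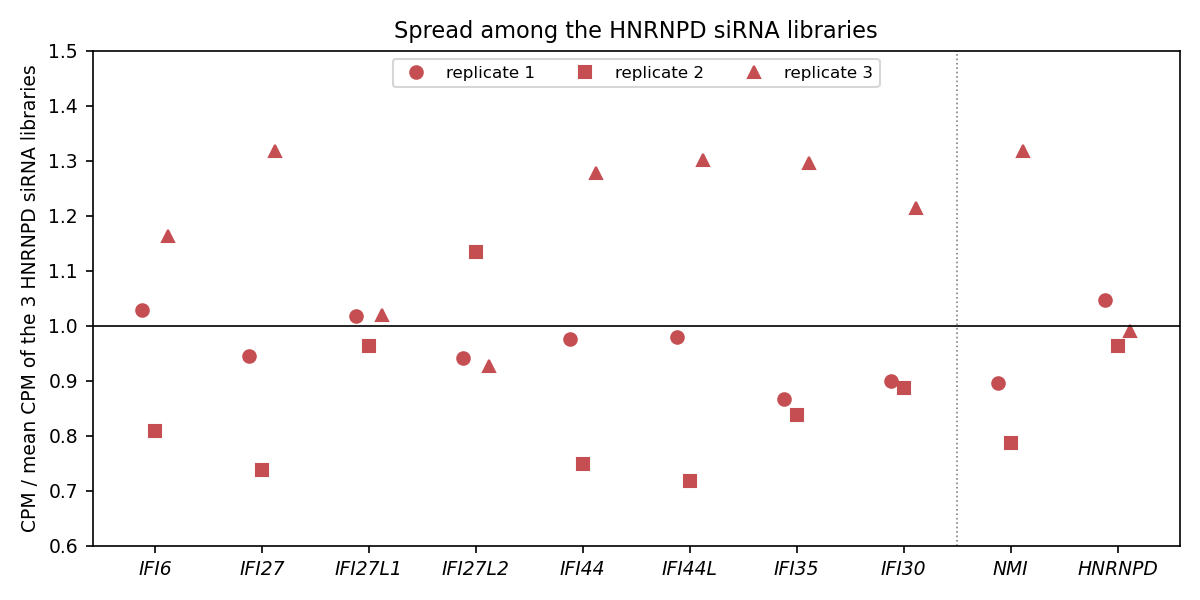
Level of each IFI gene in HNRNPD siRNA replicates 1 to 3, divided by the mean of the 3. IFI44L, IFI27 and IFI44 spread most, with coefficients of variation of 29.3%, 29.4% and 26.5%, and IFI27L1 least, at 3.3%.

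The other genes of the interferon response give the background to these values. Of 12 other genes whose symbols start with IFI (IFI16, IFIH1 and the IFIT and IFITM families), 10 were tested. Higher were 9 of them and lower 0, against 28.4% and 27.8% of all tested genes. Their median was 4.86 on the log2 scale, against 0.01 over all tested genes. IFI16, a DNA sensor, rose 24.4-fold, IFIT1, which binds foreign RNA ends, 100.2-fold and IFITM3, which blocks virus entry, 9.97-fold. IFITM10, a member of the IFITM family, was at 4.45 ± 0.581 and 4.77 ± 0.136 CPM (SD, n = 3; edgeR adjusted p = 0.557). All 30 genes of a list of core type I interferon-stimulated genes were higher, against 28.4% of all tested genes. They ranged from 2.06 to 10.03 on the log2 scale, with a median of 5.20, so each lay above IFI27L1 (0.76) and IFI27L2 (1.00). Some had few control counts, such as OAS2 (at most 5 in any control library) and MX2 (at most 6). These passed the filter only through the HNRNPD siRNA libraries, which raises this count and median. In that list 18 of the 23 genes with a promoter window (78.3%) held an ISRE core. Among tested genes called at least 10-fold higher, 37 of the 75 with a window (49.3%) held an ISRE core, against 4.14% of all tested genes with a window. That set was picked by its values in these data. It includes 5 members and genes of the core list, so its share is not separate from theirs.

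Signalling components moved in both directions. STAT2 rose 9.41-fold and IRF9, its partner in ISGF3, 5.25-fold, and IRF7, which amplifies interferon transcription, rose 23.5-fold. The receptor chains IFNAR1 and IFNAR2 fell by 0.92 and 0.99 on the log2 scale, JAK1 by 0.66 and TYK2 by 0.49. Of the exonic bases of IRF9, a fraction of 0.484 also belongs to a same-strand neighbour. For IFNAR2, a fraction of 0.391 also belongs to a gene on the opposite strand, and the strand setting of the counting is not given.

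Interferon transcripts were low. Counts of IFNL3, a type III interferon, were 0, 0 and 0 in control replicates 1 to 3 and 200, 228 and 456 in HNRNPD siRNA replicates 1 to 3. Those of IFNL2 were 0, 0 and 2, and then 144, 161 and 313, and those of IFNL1 were 2, 0 and 0, and then 112, 90 and 294. All 3 were highest in replicate 3, as most IFI genes were. IFNB1, a type I interferon gene too low to be tested, had 0 counts in each control library and 8, 22 and 46 in HNRNPD siRNA replicates 1 to 3. IFNG, the interferon gamma gene, had 0 counts in all 6 libraries, which allows up to 0.0698 to 0.0808 CPM if each count is separate.

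For IFI30, genes of class II presentation and the lysosome and genes associated with interferon gamma are the nearest comparison. Of 15 class II and lysosomal genes, 9 could be tested, with 2 higher, 3 lower and 4 not called, at a median log2 fold change of 0.05. The cathepsins CTSS, CTSB and CTSL, proteases of the endolysosome, fell by 1.07, 0.29 and 0.32 on the log2 scale (edgeR adjusted p = 0.0132, 0.000315 and 0.0028). Another cathepsin gene, CTSD, was higher by 0.24 (edgeR adjusted p = 0.0139), but was not called without control replicate 3 (edgeR adjusted p = 0.0925) or HNRNPD siRNA replicate 2 (edgeR adjusted p = 0.111), and a fraction of 0.417 of its exonic bases also belongs to a same-strand gene. CD74, the class II invariant chain, was at 0.897 and 1.76 CPM and was called higher (edgeR adjusted p = 0.0122), but not without control replicate 2 (edgeR adjusted p = 0.0633) or HNRNPD siRNA replicate 3 (edgeR adjusted p = 0.0514). Of 12 genes associated with interferon gamma, 10 were tested and 9 were higher, against 28.4% of all tested genes, at a median of 5.25. CXCL10, CXCL11, GBP5 and IDO1 had at most 6 counts in any control library and passed the filter only through the HNRNPD siRNA libraries. Their passing raises this count and median. The tested gene not called was CIITA, a regulator of class II genes (log2 fold change 0.37, edgeR adjusted p = 0.126). IRF1, a transcription factor of that response, rose 3.22-fold from 29.8 to 95.8 CPM (edgeR adjusted p = 0.000423).

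Because IFI30 is known from leukocytes, 15 leukocyte markers were read beside it. Of 7 tested, 3 were higher and 3 lower. Their summed level was 26.5 to 30 CPM in control and 78.6 to 158 CPM in HNRNPD siRNA libraries. Most of that sum was CD68, a fraction of 0.817 of whose exonic bases also belongs to a same-strand neighbour. Without CD68 the sum was 9.16 to 10.6 CPM in control and 5.19 to 6.27 CPM in HNRNPD siRNA libraries. CD3D had 0 counts in all libraries and PTPRC had 0 in all 3 HNRNPD siRNA libraries and at most 2 in a control library. Of 10 fibroblast and endothelial markers, 4 were tested and 1 was higher, with sums of 5.65 to 6.67 and 7.3 to 8.52 CPM.

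The genes around the members were compared to see whether whole neighbourhoods moved. Within 100 kb lay 39 other rows, of which 23 were tested, 8 were higher (34.8%), 7 lower (30.4%) and 8 not called, with a median log2 fold change of -0.04. These shares are near those of all tested genes, 28.4% and 27.8%. Some of these rows are not separate, since a fraction of 0.96 of the exonic bases of PTGES3L-AARSD1 and 0.872 of those of PIK3R2 also belongs to other rows. AC007192.4 also holds the counts of IFI30 itself. RP11-288L9.4, the antisense gene of IFI6, was the one neighbour at least 10-fold higher, and the other 22 tested neighbours ranged from -1.06 to 1.55. Around IFI44 and IFI44L no other row was high enough to test. DDX24, an RNA helicase gene whose span overlaps that of IFI27L1, rose from 189.1 ± 6.35 to 370.2 ± 15.5 CPM (SD, n = 3; log2 fold change 0.97, SE 0.06, edgeR adjusted p = 1.27e-10), close in size to the changes of IFI27L1 and IFI27L2. Beside IFI35, VAT1 at 0.1 kb had a log2 fold change of 0.50 (edgeR adjusted p = 0.000221) and the ribosomal protein gene RPL27 at 3.8 kb one of -0.40 (edgeR adjusted p = 0.0117, and 0.112 without HNRNPD siRNA replicate 3). Near IFI30, the kinase gene MAST3 fell by 0.70 on the log2 scale while PDE4C, a phosphodiesterase, rose from 1.33 to 3.90 CPM.

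**Figure D5:**
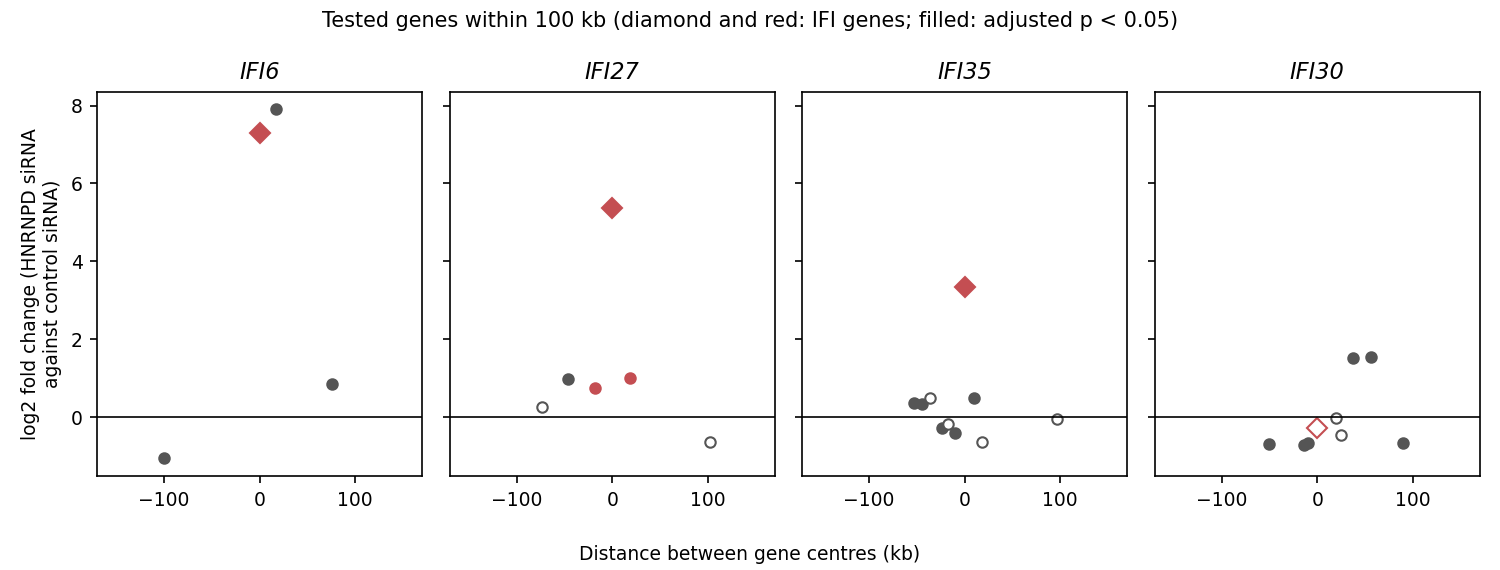
Log2 fold change of tested genes within 100 kb of IFI6, IFI27, IFI35 and IFI30 against the distance between gene centres in kb, with IFI genes in red and called genes filled. IFI6, IFI27 and IFI35 stand above 3.32 (10-fold). Of the grey points only RP11-288L9.4 beside IFI6 does (7.90), and the others lie between -1.06 and 1.55.

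Genes with the most similar pattern were found by the Euclidean distance of centred log2 CPM over the 6 libraries, which all members share, among 9643 protein-coding genes that averaged 5 CPM or more. Nearest to IFI6 was IFIT2 (distance 0.63), to IFI44 OASL (0.61), to IFI44L IFI6 (0.81), to IFI27 DHX58 (0.67) and to IFI35 PARP14 (0.28). These are genes known to be induced by interferon. Nearest to IFI27L1 was SDF4 (0.08), which encodes a Golgi calcium-binding protein, to IFI27L2 APBA2 (0.18) and to IFI30 TPD52 (0.27).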

How the data were processed

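The values are whole-number read counts per gene, as the authors deposited them in 1 table, with each gene's position and exon length. Libraries were made with the TruSeq RNA kit from Trizol-extracted RNA, per the labels. The submitters' processing notes list Bowtie 0.12.2 and the builds GRCh38 and mm8 without saying what each was for. Not given in the sources used here are the counting program, the annotation and the strand setting. Starts and ends were matched to GENCODE 29. Among counts of 1 to 20, 66.2% to 69.5% per library were even, as when both mates of a pair add a count.

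The 3 HNRNPD siRNA libraries were compared with the 3 control libraries with edgeR 4.0.16 (R 4.3.3): quasi-likelihood test with robust estimation, TMM scaling, filterByExpr, group as the only term and Benjamini-Hochberg adjustment over 20465 genes. The biological coefficient of variation was 8.3%. CPM use TMM-scaled totals. Standard errors were the absolute log2 fold change over the root of F, with 95% intervals. The fit was tested on simulated data that gave every gene the same variation of 8.3%. It therefore does not cover genes with a wider spread, such as IFI44L (29.3% among the HNRNPD siRNA libraries). No replicates were close enough to be 1 library (chi-square per degree of freedom 6.13 to 24.74). No other sample columns were present. The 15 alternatives covered scaling, filters, DESeq2 1.42.0, limma-voom (limma 3.58.1), halved counts, mitochondrial genes left out, the replicate block and each library left out.

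The members, gene lists and rules were chosen with earlier results of these data known. Named genes were the members, the targeted gene, up to 4 genes per list with the smallest p, genes near the members, and the 3 genes nearest each member in pattern; others were named after their values were seen. Neighbours were limited, after the table was seen, to rows on 1 chromosome with a span of up to 3 Mb. A gene of the signalling list is not reported here.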

Additional observations from a re-analysis of the deposited data

How the results depend on the processing

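The 7 members called higher stayed higher and called under all 15 alternatives, with log2 fold changes of 7.14 to 7.43 for IFI6, 5.12 to 5.56 for IFI27, 0.66 to 0.81 for IFI27L1, 0.89 to 1.14 for IFI27L2, 3.11 to 3.46 for IFI35, 7.90 to 8.29 for IFI44 and 7.63 to 8.14 for IFI44L. IFI30 was called lower with no filter on low counts (-0.31, edgeR adjusted p = 0.0458) and ran from -0.49 to -0.16 with single libraries left out, so that 0 to 1 members were called lower. Over the tested genes, same-numbered libraries deviated together at r of only 0.026, 0.022 and 0.014. HNRNPD siRNA replicate 3 correlated best with control replicate 2 (r = 0.016), and every other library with its own number. The labels do not say whether same-numbered libraries were paired, and these values do not settle it. With the replicate block, 5792 genes were higher and 5737 lower, all 7 members stayed higher and IFI30 was at -0.28 (edgeR adjusted p = 0.34). The block lowered the SE from 0.20 to 0.09 for IFI6 and from 0.37 to 0.11 for IFI27. For IFI44 the SE went from 0.36 to 0.11 and for IFI44L from 0.42 to 0.12. The SE stayed at 0.11 for IFI27L1 and 0.22 for IFI27L2.

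With single libraries left out, the median log2 fold change ran from 4.59 to 5.05 for the other IFI-prefixed genes, 4.85 to 5.39 for core interferon-stimulated genes and 4.59 to 5.48 for genes associated with interferon gamma. With no filter the medians were 4.59 for the other IFI-prefixed genes and -0.18 for class II and lysosomal genes. Requiring 1 CPM in 3 libraries gave 3.56 for genes associated with interferon gamma. Class II and lysosomal genes called higher numbered 1 to 2 with single libraries left out. MPV17L2, a neighbour of IFI30 near 0, was at 0.01 with library totals and with 1 CPM in 3 libraries, and at -0.24 to 0.08 with single libraries left out. The cause was not tested. The low control counts of IFI44, IFI44L, IFI6 and IFI27 limit the precision of their folds.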
